A study of Morone chrysops with 54 samples.

Results

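The contigs described here are 29 of the 20914 contigs counted in white bass (Morone chrysops) liver, namely those whose names speak of fatty acids, acyl-CoA, desaturases, carnitine, acylglycerols, phospholipids, sterols or the G0/G1 switch among the 977 contigs that the study listed as different in at least 1 of its 5 comparisons with the control diet. They fall by role into 4 contigs of fatty acid synthesis and desaturation, 6 of acyl-CoA activation, binding and hydrolysis, 3 of the carnitine shuttle and oxidation, 5 of acylglycerol and lipid droplet turnover, 4 of sterols and 7 of phospholipids and lipid peroxides. Because the names came from those lists, the lists chose the members: 12 came from the list of Diet 2, 2 from Diet 4, 22 from Diet 5 and 4 from Diet 6, with 20 on 1 list, 7 on 2 and 2 on 3, and none came from the list of Diet 3. Every comparison with Diet 1 below is therefore a description.

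Juvenile white bass were fed 1 of 6 diets for 60 days, with 9 fish sampled per diet and 1 poly(A) RNA library made from the liver of each fish. Diet 2 held less fish meal and more soybean meal, Diet 3 less fish meal with poultry meal and soybean meal, Diet 4 poultry meal and soybean meal with no fish meal, Diet 5 only plant protein, and Diet 6 a commercial blend of ingredients with soybean meal. Diet 1 was the fish meal control. The added oils differed as well. Added menhaden fish oil was highest in Diets 4, 5 and 6, lower in Diets 2 and 3 and lowest in Diet 1. By the study's methods this kept the part of fish oil in total lipid the same in every diet. Canola oil was absent from Diet 6 and lower in Diets 2 to 5 than in Diet 1. Total lipid was formulated to be equal in all 6, so that protein source and added oil change together and cannot be told apart. By the study's methods 3 fish came from each of 3 tanks per diet, so that every fish shared a tank with others of its diet, and p-values below take fish as independent and measure the spread between fish, not between tanks. The library names of each diet carry 3 T tags of 3 fish, the same layout, though the labels leave the meaning of the tag open.

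In fish as in mammals the liver makes fatty acids from citrate: ATP-citrate synthase yields acetyl-CoA, fatty acid synthase builds it into palmitate, and desaturases add double bonds. Fatty acids are then activated to acyl-CoA, stored as triacylglycerol in droplets, released by lipases, or carried into mitochondria by the carnitine shuttle and burned. Cholesterol is built from acetyl-CoA through lanosterol. Long-chain polyunsaturated fatty acids reach carnivorous fish in both fish meal and fish oil. Short symbols are given to the contigs from their names, and fatty acyl-CoA hydrolase is written FACH.

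Library totals lay between 5964761 and 17336918 counts in 53 libraries, while Diet 5 replicate 7 had 755 counts, of which 3 fell on these contigs, and was left out of the values below, so that n is 8 fish for Diet 5 and 9 for each other diet. The 29 contigs together took 0.224% to 2.47% of a library's counts (median 0.438%). The liver marker ceruloplasmin was present in all 53 livers, while angiopoietin-related protein 3 was at 0 in 4. Exocrine pancreas transcripts were present too: 7 of 7 markers were detected, with 85.6 to 68368 summed CPM, the counts scaled by library total and TMM factor, in Diet 6 livers and 12840.4 to 174381 CPM in Diet 1 livers. In such bulk samples fewer cells of a type and less RNA per cell cannot be told apart.

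Against Diet 1, the Diet 5 (all-plant) livers had higher levels of contigs such as FADS2 and CPT1 and lower levels of ACSF2 and ACAD11, all 4 of them named by the Diet 5 list. A contig was called at an adjusted p under 0.05 in edgeR's quasi-likelihood test and a change of more than 1.5-fold. In Diet 5 versus Diet 1, 20 of the 29 were called, 13 higher and 7 lower, where 6.67% of all 9548 tested contigs were called, 3.33% higher and 3.34% lower. Since 22 of the members came from the Diet 5 list, nothing is read from that count or from its contrast with the other diets. None was called in Diet 2, 3, 4 or 6 versus Diet 1, where 0.0524%, 0%, 0.0209% and 2.16% of all contigs were called. DESeq2 called 1, 0, 2 and 3 members there, and 23, 2, 33 and 266 of all 9548 contigs. The study's own lists for these comparisons held 293, 11, 52 and 253 contigs. For Diets 2, 3 and 4 that is more than either fit called, and the cause was not tested. At an unadjusted p under 0.05 there were 11, 6, 8 and 10 members. The share of all contigs at that threshold was not counted, so nothing is read from those counts. The median log2 fold change of the 29 was 0.27 for Diet 2, 0.16 for Diet 3, 0.21 for Diet 4, 0.65 for Diet 5 and -0.10 for Diet 6, beside medians of all contigs between -0.03 and 0.01. Just inside the fold limit lay ACBP with a log2 fold change of 0.59 in Diet 5 versus Diet 1, and just outside it PLPP3 with 0.58 and ACBD5 with -0.58. With counts summed per T tag, which leaves 3 values per diet, 8 members were called in Diet 5 versus Diet 1, beside 393 of all 11686 contigs tested. They were ACSF2, CPT1, ACAD11, ABHD6, PNPLA7, SC5D, PLD4 and GPX4a. Without Diet 5 replicate 3, 13 members and 480 of all contigs were called. Since the Diet 5 list named 22 of the members, nothing is read from either count. Where single fish are left out below, they are fish of the 2 diets compared.

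Cell type markers were measured in the same livers. Like the members, they stood on the study's lists, so nothing is read from their calls against Diet 1. The summed exocrine markers were at 6909 to 109978 CPM in Diet 5 livers and 12840.4 to 174381 CPM in Diet 1 livers (median log2 fold change of the 7 of -1.55, none called), and the summed hepatocyte markers at 2581 to 4393 CPM in Diet 5 livers and 1764 to 3814 CPM in Diet 1 livers (median of the 2 of 1.22, none called). Of 2 endocrine pancreas markers 1 was called lower, where 3.34% of all contigs were. The sums were 0 to 2.78 CPM in Diet 5 livers and 0.829 to 46.2 CPM in Diet 1 livers. With the mean log2 level of the exocrine markers as a covariate, OSBPL3 and PLPP2 were the only 2 of the 20 no longer called, and the part of the other markers was not tested.

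**Figure D1:**
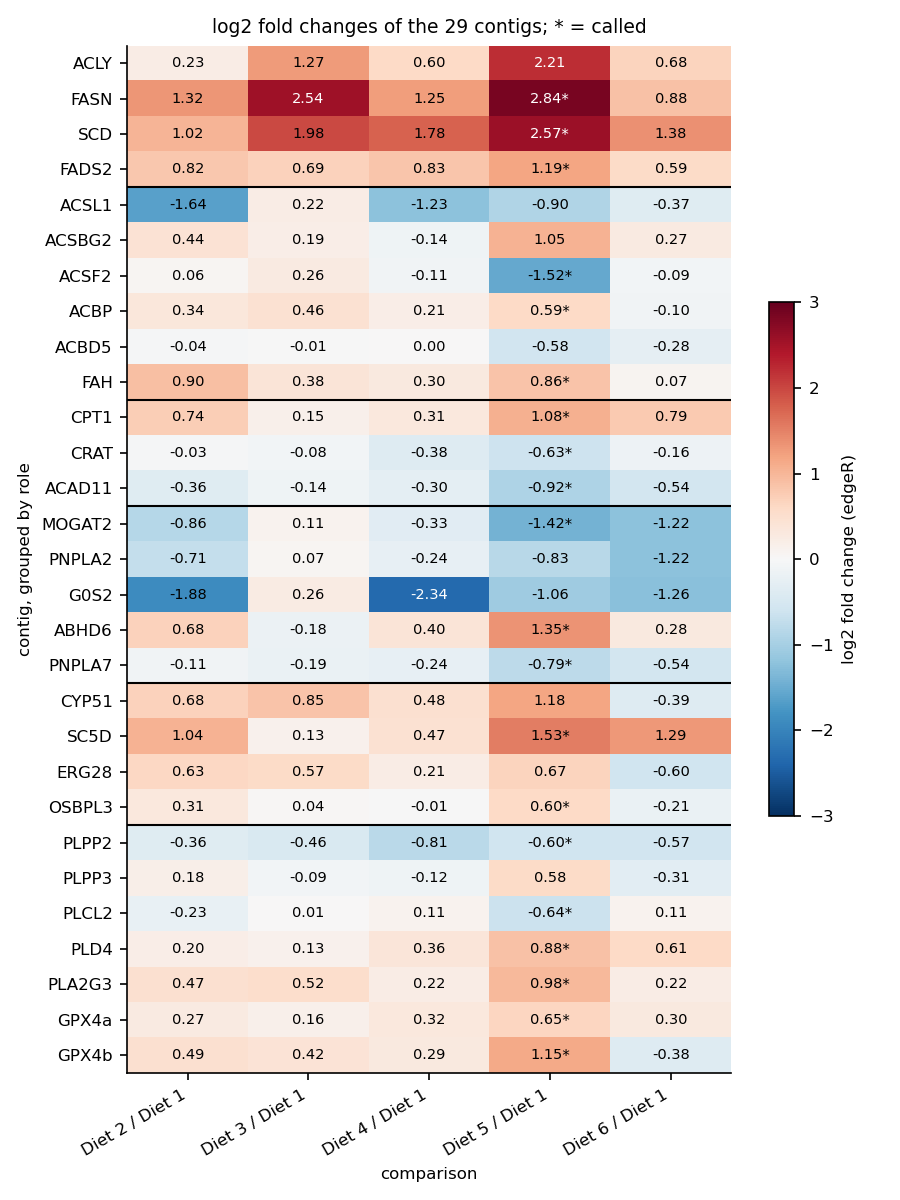
log2 fold changes of the 29 contigs (rows, grouped by role) in each of Diets 2 to 6 over Diet 1 (columns), from the edgeR fit; an asterisk marks a contig that was called. All 20 asterisks stand in the Diet 5 column, 13 of them on higher and 7 on lower contigs; the Diet 5 list supplied 22 of the 29.

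Among the 4 contigs of fatty acid synthesis and desaturation, ACLY, FASN and SCD had the largest within-diet spread of all 29, and the same fish often stood highest for several of them. ATP-citrate synthase (ACLY), which cleaves citrate to acetyl-CoA, had 17.7 to 138 (median 73.2) in fish fed Diet 2, 22.2 to 696 (median 39.3) with Diet 3, 17.0 to 338 (median 59.8) with Diet 4, 48.5 to 1693 (median 70.6) with Diet 5 and 19.2 to 616 (median 40.0) with Diet 6, against 14.6 to 339 (median 22.7) with Diet 1 CPM. Single fish set the top of those ranges: Diet 5 replicate 3 at 1693 CPM, Diet 3 replicate 1 at 696, Diet 6 replicate 6 at 616 and Diet 1 replicate 7 at 339. ACLY was on the Diet 5 list but was not called here, with a log2 fold change of 2.21 ± 0.81 (± SE).

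Fatty acid synthase (FASN), the enzyme that builds palmitate, had 56.0 to 735 (median 213) in fish fed Diet 2, 39.5 to 3803 (median 179) with Diet 3, 47.6 to 781 (median 191) with Diet 4, 162 to 4685 (median 277) with Diet 5 and 52.7 to 1112 (median 92.6) with Diet 6, against 34.4 to 287 (median 79.4) with Diet 1 CPM. All 8 Diet 5 livers lay above the Diet 1 median, the ranges overlapped, and the log2 fold change was 2.84 ± 0.81. Without Diet 5 replicate 3 it was 1.30 and no longer called. The contig was named on the list of Diet 2 alone, where its log2 fold change was 1.32 ± 0.76. The acyl-CoA desaturase contig (SCD), which makes monounsaturated fatty acids, had 167 to 2020.5 (median 1018) in fish fed Diet 2, 212 to 6921 (median 816) with Diet 3, 122 to 5347 (median 751) with Diet 4, 413 to 10528 (median 943) with Diet 5 and 249 to 5749 (median 516) with Diet 6, against 140.1 to 1549 (median 213) with Diet 1 CPM. The log2 fold change in Diet 5 over Diet 1 was 2.57 ± 0.77, and 1.65 and not called without Diet 5 replicate 3.

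Fatty acid desaturase 2 (FADS2), the first enzyme on the way to long-chain polyunsaturated fatty acids, spread less between fish. It had 439 to 1288 (median 842) in fish fed Diet 2, 360.2 to 1299 (median 569.5) with Diet 3, 233 to 1131 (median 961) with Diet 4, 558 to 2112 (median 965) with Diet 5 and 415 to 1092 (median 578) with Diet 6, against 179 to 752 (median 433) with Diet 1 CPM. Each of the 8 Diet 5 livers exceeded the Diet 1 median, and the log2 fold change of 1.19 ± 0.30 was called with any 1 fish left out. That call was lost with T tag sums. The within-diet SD of log2 CPM was 0.65 for FADS2, while it was 1.49 for ACLY, 1.51 for FASN and 1.52 for SCD, against a median of 0.46 over all contigs.

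**Figure D2:**
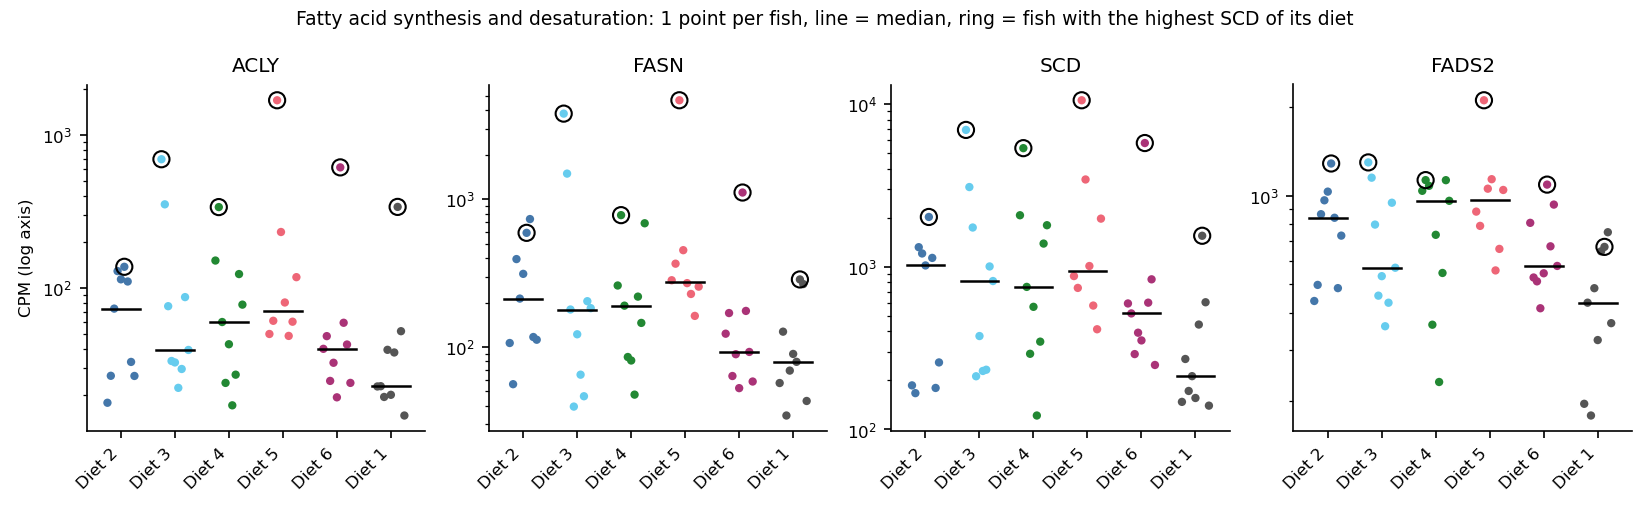
CPM on a log axis of ACLY, FASN, SCD and FADS2, 1 point per liver, for Diets 2 to 6 and Diet 1, with the median as a line and a ring round the fish with the highest SCD of its diet. The ringed fish was also the highest for ACLY in 6 of 6 diets, for FASN in 5 and for FADS2 in 5.

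Within a diet, fish with more of 1 lipogenic contig had more of the others. This was measured across the 53 fish after each diet's mean log2 CPM had been taken out, on 25 pairs of contigs set by textbook role. It used 100000 permutations within diets and adjustment over the 25. The pairs were chosen with earlier results of these data known. The permutations took fish as independent and did not keep those of a T tag together. ACLY and SCD had a Pearson r of 0.943 and a Spearman rho of 0.928, ACLY and FASN an r of 0.880 (rho 0.841), and FASN and SCD an r of 0.894 (rho 0.871). For FADS2 r was 0.797 with ACLY, 0.755 with FASN and 0.860 with SCD (rho 0.847, 0.776 and 0.877). The permutation p was 1e-05 for each of these 6 pairs, the smallest that these permutations can give (adjusted p = 2.27e-05 for r). Without the 2 fish farthest from the median r lay between 0.721 and 0.934, and within each of the 3 L tags, a second label of 17 or 18 fish each whose meaning is not stated, between 0.656 and 0.992.

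The other fixed pairs divided the set. Lanosterol 14-alpha demethylase (CYP51), which removes a methyl group from lanosterol, went with the ergosterol biosynthetic protein 28 contig (ERG28), a scaffold of sterol enzymes in yeast, at an r of 0.880 (rho 0.798, adjusted permutation p = 2.27e-05). It also went with FASN at an r of 0.751 (rho 0.714). The lathosterol oxidase contig (SC5D), a later enzyme of the same sterol pathway, did not follow either, with an r of 0.0566 with CYP51 (rho 0.130, adjusted permutation p = 0.703) and of -0.0763 with ERG28 (rho -0.111, adjusted permutation p = 0.652). The lipase PNPLA2 and its inhibitor G0S2 had an r of -0.0670 (rho -0.145, adjusted permutation p = 0.652), and within L tags between -0.498 and 0.183. CPT1, the entry enzyme of the carnitine shuttle, and FASN had an r of -0.347 (rho -0.308, adjusted permutation p = 0.0472 for r and 0.0584 for rho). Without the 2 fish farthest from the median in CPT1 it was -0.0976. Within L tags 4, 5 and 8 it was -0.571, -0.0122 and -0.618, so that the value varied with the fish used. In all, 16 of the 25 pairs passed for r and 15 for rho.

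**Figure D3:**
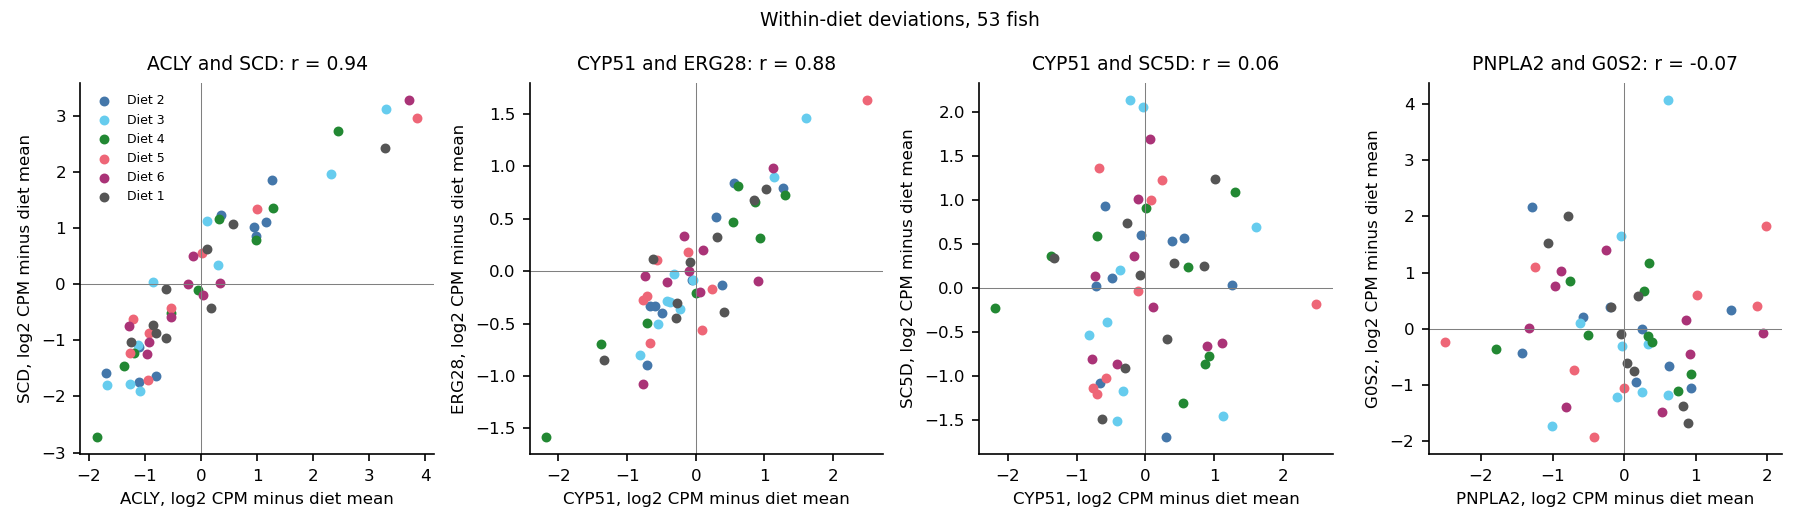
Deviations of log2 CPM from the diet mean for 4 of the 25 pairs, 1 point per fish (53 fish), coloured by diet. The points of ACLY and SCD (r = 0.94) and of CYP51 and ERG28 (r = 0.88) lie along a line, those of CYP51 and SC5D (r = 0.06) and of PNPLA2 and G0S2 (r = -0.07) do not.

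Among the 6 contigs of acyl-CoA handling, 3 were called in Diet 5 versus Diet 1, and they differed in direction. Acyl-CoA synthetase family member 2 (ACSF2), which activates fatty acids in mitochondria, had 5.30 to 24.99 (median 14.4) in fish fed Diet 2, 9.08 to 24.9 (median 19.96) with Diet 3, 5.23 to 18.5 (median 14.2) with Diet 4, 2.45 to 10.1 (median 4.42) with Diet 5 and 6.48 to 31.0 (median 14.3) with Diet 6, against 7.41 to 25.5 (median 12.9) with Diet 1 CPM. All 8 Diet 5 livers lay below the median of every other diet, and the log2 fold change to Diet 1 was -1.52 ± 0.32. ACSF2 was also called lower in Diet 5 versus Diets 2, 3 and 4 (log2 -1.59 ± 0.32, -1.78 ± 0.32 and -1.41 ± 0.31) and higher in Diet 6 versus Diet 5 (1.44 ± 0.31), comparisons that share the Diet 5 fish that chose it.

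Acyl-CoA-binding protein (ACBP), the cytosolic carrier of acyl-CoA, had 559 to 1464 (median 823) in fish fed Diet 2, 585 to 1481 (median 918) with Diet 3, 588 to 972 (median 811) with Diet 4, 782 to 1493 (median 1035) with Diet 5 and 472 to 842 (median 688) with Diet 6, against 475 to 926 (median 719) with Diet 1 CPM. Every Diet 5 liver lay above the Diet 1 median at a log2 fold change of 0.59 ± 0.16, a call that 4 single fish left out ended (Diet 1 replicates 2 and 4, Diet 5 replicates 1 and 3), with 0.50 to 0.65 over the fish left out in turn. It was also lower in Diet 6 versus Diet 5, at -0.69 ± 0.16. The medium-chain fatty acyl-CoA hydrolase contig (FACH), named for splitting acyl-CoA thioesters, had 131 to 374 (median 257) in fish fed Diet 2, 116 to 309 (median 145) with Diet 3, 89.3 to 243 (median 164) with Diet 4, 176 to 317 (median 232) with Diet 5 and 85.6 to 249.9 (median 125) with Diet 6, against 72.9 to 231 (median 125) with Diet 1 CPM, highest with Diets 2 and 5. Its log2 fold change was 0.86 ± 0.22 in Diet 5 and 0.90 ± 0.21 in Diet 2 over Diet 1, of which the Diet 5 value was called.

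The long-chain acyl-CoA ligases ACSL1 and ACSBG2 and the peroxisomal acyl-CoA-binding ACBD5 were called in no comparison. ACSL1 was led by 2 fish, Diet 3 replicate 1 at 73.6 CPM and Diet 1 replicate 7 at 59.0 CPM, where the other fish of their diets had at most 9.79 and 11.5 CPM. ACSBG2 lay between 0.986 and 17.97 CPM over the 53 fish, with its highest value in Diet 5 replicate 3. ACBD5 lay between 5.77 and 22.9 CPM, with medians of 8.42 with Diet 5 and of 11.8 to 14.4 with the other diets.

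The 3 contigs of the carnitine shuttle and oxidation were all called in Diet 5 versus Diet 1, 1 higher and 2 lower. Carnitine palmitoyltransferase 1 (CPT1), which passes long-chain acyl groups to carnitine at the mitochondrial outer membrane, had 7.33 to 22.8 (median 11.1) in fish fed Diet 2, 3.20 to 14.4 (median 9.15) with Diet 3, 6.41 to 16.6 (median 9.42) with Diet 4, 8.39 to 25.01 (median 18.7) with Diet 5 and 10.3 to 20.99 (median 13.1) with Diet 6, against 4.79 to 11.6 (median 8.38) with Diet 1 CPM. All 8 Diet 5 livers exceeded the Diet 1 median, with a log2 fold change of 1.08 ± 0.25. Diets 2 and 6, on whose lists it also stood, had 0.74 ± 0.25 and 0.79 ± 0.25, not called.

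Carnitine acetyltransferase (CRAT), which exchanges acetyl groups between CoA and carnitine, had 28.8 to 52.9 (median 46.2) in fish fed Diet 2, 25.6 to 55.1 (median 43.0) with Diet 3, 21.9 to 46.8 (median 31.0) with Diet 4, 17.7 to 50.01 (median 28.1) with Diet 5 and 30.3 to 48.5 (median 38.1) with Diet 6, against 26.5 to 57.3 (median 46.1) with Diet 1 CPM. In Diet 5 over Diet 1 the log2 fold change was -0.63 ± 0.17, with 7 of 8 fish under the Diet 1 median; 7 single fish left out ended the call (Diet 1 replicates 1, 4, 5 and 6, Diet 5 replicates 1, 3 and 8; -0.79 to -0.55 over all fish left out). Acyl-CoA dehydrogenase family member 11 (ACAD11), an enzyme of fatty acid oxidation, had 97.0 to 138 (median 107) in fish fed Diet 2, 116 to 147 (median 129.7) with Diet 3, 75.3 to 150.4 (median 125) with Diet 4, 52.9 to 99.1 (median 78.9) with Diet 5 and 51.1 to 137 (median 103) with Diet 6, against 79.5 to 188 (median 145) with Diet 1 CPM. The Diet 5 livers did not overlap the Diet 3 livers, and the log2 fold change was -0.92 ± 0.14 to Diet 1, -0.78 ± 0.14 to Diet 3 and -0.62 ± 0.14 to Diet 4.

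Of the 5 contigs of acylglycerol and lipid droplet turnover, ABHD6 was called higher and MOGAT2 and PNPLA7 lower in Diet 5 versus Diet 1. The monoacylglycerol lipase contig ABHD6, which splits monoacylglycerols, had 3.81 to 31.3 (median 20.9) in fish fed Diet 2, 5.68 to 24.8 (median 9.15) with Diet 3, 8.32 to 27.9 (median 17.6) with Diet 4, 18.1 to 50.1 (median 30.7) with Diet 5 and 9.10 to 27.7 (median 13.3) with Diet 6, against 5.92 to 23.5 (median 10.1) with Diet 1 CPM. The Diet 5 median was the highest and 8 of 8 Diet 5 fish lay above the Diet 1 median (log2 1.35 ± 0.30). The acyltransferase MOGAT2, which makes diacylglycerol from monoacylglycerol, was rare, at 0.358 to 2.95 (median 1.33) in fish fed Diet 2, 1.29 to 8.58 (median 2.35) with Diet 3, 1.01 to 2.80 (median 2.15) with Diet 4, 0.352 to 2.31 (median 0.73) with Diet 5 and 0.254 to 3.17 (median 0.888) with Diet 6, against 1.10 to 5.63 (median 2.49) with Diet 1 CPM. Its medians were lowest with Diets 5 and 6, with log2 fold changes to Diet 1 of -1.42 ± 0.41, called, and -1.22 ± 0.39, not called; the lowest fish had 3 counts of it.

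PNPLA7, a patatin-like lysophospholipase in mammals, had 70.0 to 109 (median 87.6) in fish fed Diet 2, 67.1 to 107 (median 82.4) with Diet 3, 44.5 to 113 (median 80.0) with Diet 4, 40.9 to 67.0 (median 56.8) with Diet 5 and 27.7 to 91.1 (median 52.8) with Diet 6, against 50.3 to 122 (median 92.8) with Diet 1 CPM. No Diet 5 liver reached the lowest Diet 2 or Diet 3 liver, and the log2 fold change was -0.79 ± 0.17 to Diet 1, -0.68 ± 0.17 to Diet 2 and -0.60 ± 0.17 to Diet 3. The triacylglycerol lipase PNPLA2, which opens lipolysis at the droplet, was called in no comparison and had 2.86 to 22.0 (median 8.72) in fish fed Diet 2, 7.55 to 23.4 (median 14.9) with Diet 3, 3.29 to 22.0 (median 14.6) with Diet 4, 0.927 to 21.7 (median 4.77) with Diet 5 and 1.97 to 19.5 (median 4.20) with Diet 6, against 6.75 to 26.3 (median 14.5) with Diet 1 CPM. Its medians were lowest with Diets 5 and 6.

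G0S2, the protein that inhibits PNPLA2 in mammals, was also called in none, although it was on the lists of Diets 2 and 4. It had 5.92 to 56.0 (median 12.4) in fish fed Diet 2, 7.86 to 443 (median 21.3) with Diet 3, 4.75 to 23.2 (median 9.44) with Diet 4, 5.50 to 75.4 (median 23.0) with Diet 5 and 7.25 to 53.8 (median 20.5) with Diet 6, against 13.1 to 170.4 (median 39.8) with Diet 1 CPM. The log2 fold changes to Diet 1 were -1.88 ± 0.61 with Diet 2 and -2.34 ± 0.62 with Diet 4, beside Diet 1 livers that reached 170.4 and 122 CPM in their highest 2 fish. The highest value of all stood in Diet 3 replicate 1, at 443 CPM, where the next Diet 3 liver had 82.2.

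The sterol contigs did not move as 1 group. CYP51 had 146 to 576 (median 230.2) in fish fed Diet 2, 143 to 772 (median 203) with Diet 3, 40.2 to 450.2 (median 266) with Diet 4, 157 to 1502 (median 213) with Diet 5 and 67.2 to 249.6 (median 107) with Diet 6, against 59.2 to 302 (median 141) with Diet 1 CPM, with Diet 5 replicate 3 far above the others. It was not called in any diet against Diet 1 (log2 1.18 ± 0.42 with Diet 5, 0.38 without that fish). ERG28 had 34.95 to 116 (median 59.4) in fish fed Diet 2, 33.9 to 162 (median 48.4) with Diet 3, 15.5 to 81.9 (median 58.0) with Diet 4, 38.8 to 195 (median 54.5) with Diet 5 and 13.2 to 55.4 (median 27.0) with Diet 6, against 23.6 to 73.1 (median 45.2) with Diet 1 CPM. Its Diet 6 median was the lowest of the 6 diets.

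SC5D had 2.71 to 16.9 (median 9.60) in fish fed Diet 2, 1.18 to 15.3 (median 2.61) with Diet 3, 2.36 to 12.5 (median 6.93) with Diet 4, 4.80 to 28.8 (median 10.3) with Diet 5 and 5.50 to 32.6 (median 8.65) with Diet 6, against 1.498 to 10.2 (median 5.12) with Diet 1 CPM. It was called higher in Diet 5 versus Diet 1 at a log2 fold change of 1.53 ± 0.47, with 6 of 8 fish above the Diet 1 median, but not without Diet 5 replicate 4 or 8 (1.29 to 1.71). The oxysterol-binding protein-related protein 3 contig (OSBPL3), of a family of lipid transfer proteins, had 24.4 to 59.6 (median 43.2) in fish fed Diet 2, 21.4 to 42.1 (median 35.6) with Diet 3, 20.2 to 63.8 (median 29.98) with Diet 4, 28.9 to 104 (median 50.4) with Diet 5 and 23.1 to 42.8 (median 29.5) with Diet 6, against 22.5 to 46.3 (median 34.2) with Diet 1 CPM. Its log2 fold change of 0.60 ± 0.20 in Diet 5 lay at the limit of a call, and 8 of 17 single fish left out ended it: Diet 1 replicates 4, 5, 6, 7 and 9 and Diet 5 replicates 1, 3 and 4 (0.38 to 0.68).

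Of the 7 phospholipid and lipid peroxide contigs, 4 were called higher and 2 lower in Diet 5 versus Diet 1. Both phospholipid hydroperoxide glutathione peroxidase contigs, members of the selenoenzyme family that reduces peroxidized membrane lipids, were among the higher. The first (GPX4a) had 218 to 398 (median 250.1) in fish fed Diet 2, 191 to 319.7 (median 234) with Diet 3, 220.5 to 335 (median 280.0) with Diet 4, 259.7 to 426 (median 352) with Diet 5 and 196 to 472 (median 249.7) with Diet 6, against 172 to 435 (median 198) with Diet 1 CPM, and the second (GPX4b) had 150.2 to 501 (median 369.7) in fish fed Diet 2, 101 to 741 (median 214) with Diet 3, 131 to 482 (median 234) with Diet 4, 308 to 1009 (median 487) with Diet 5 and 125 to 423 (median 157) with Diet 6, against 118 to 571 (median 188) with Diet 1 CPM. All 8 Diet 5 livers lay above the Diet 1 median for both, at log2 fold changes of 0.65 ± 0.16 and 1.15 ± 0.33, the second 0.95 and not called without Diet 5 replicate 3. They had a within-diet r of 0.575 (rho 0.487, adjusted permutation p = 2.27e-05 for r, 0.435 without the 2 farthest fish); the counting program divides reads that fit more than 1 contig, and how it divided them between this pair was not tested, so that their separate values are uncertain. In Diet 6 over Diet 5, GPX4b was at -1.53 ± 0.33, called.

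Group 3 secretory phospholipase A2 (PLA2G3), which frees fatty acids from phospholipids, had 169 to 426 (median 371) in fish fed Diet 2, 140.1 to 688 (median 265) with Diet 3, 99.9 to 468 (median 273) with Diet 4, 292 to 1161 (median 397) with Diet 5 and 129 to 438 (median 236) with Diet 6, against 111 to 519 (median 179.9) with Diet 1 CPM. Its log2 fold change in Diet 5 was 0.98 ± 0.31, a call that was lost without Diet 1 replicate 2, 3 or 9 or Diet 5 replicate 3 (0.65 to 1.199). The phospholipase D4 contig (PLD4), which in mouse is an exonuclease of nucleic acids in immune cells, had 11.5 to 21.3 (median 12.6) in fish fed Diet 2, 7.23 to 28.1 (median 12.5) with Diet 3, 6.21 to 29.5 (median 14.6) with Diet 4, 15.4 to 42.1 (median 21.4) with Diet 5 and 8.23 to 30.7 (median 19.2) with Diet 6, against 10.2 to 16.5 (median 13.4) with Diet 1 CPM and a log2 fold change of 0.88 ± 0.24. Of 3 lymphoid and antigen-presenting markers, themselves from the study's lists, 1 was also called higher there, where 3.33% of all contigs were. The summed levels of these markers were 28.1 to 137 CPM in Diet 5 livers and 13.2 to 38.6 CPM in Diet 1 livers. One marker, 1 of the 3, was at 0 in 3 of the 53 fish. The part of these markers in the PLD4 value was not tested.

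The inactive phospholipase C-like protein 2 (PLCL2), which has lost catalysis, had 35.2 to 106 (median 53.1) in fish fed Diet 2, 47.7 to 82.8 (median 65.3) with Diet 3, 44.4 to 98.6 (median 69.0) with Diet 4, 31.8 to 50.4 (median 40.8) with Diet 5 and 53.7 to 78.8 (median 73.8) with Diet 6, against 27.3 to 88.3 (median 69.8) with Diet 1 CPM. The Diet 5 livers did not overlap the Diet 6 livers. The log2 fold change was -0.64 ± 0.17 in Diet 5 over Diet 1, a call ended by leaving out any of 3 single fish (Diet 1 replicates 1 and 3, Diet 5 replicate 2; -0.74 to -0.57), and 0.75 ± 0.17 in Diet 6 over Diet 5. Phospholipid phosphatase 3 (PLPP3), which removes phosphate from phosphatidic acid, had 42.0 to 76.8 (median 56.2) in fish fed Diet 2, 40.9 to 59.3 (median 43.6) with Diet 3, 42.2 to 52.3 (median 46.0) with Diet 4, 48.3 to 133 (median 68.0) with Diet 5 and 21.7 to 55.4 (median 43.1) with Diet 6, against 36.1 to 69.9 (median 48.2) with Diet 1 CPM. It was not called against Diet 1 but was higher in Diet 5 over Diets 3 and 4 (0.66 ± 0.16 and 0.70 ± 0.16; both calls ended without Diet 5 replicate 3, at 0.49 and 0.53) and lower in Diet 6 over Diet 5 (-0.89 ± 0.16).

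Its relative PLPP2 had 32.9 to 56.0 (median 49.4) in fish fed Diet 2, 28.9 to 74.8 (median 38.7) with Diet 3, 23.1 to 51.2 (median 31.1) with Diet 4, 26.7 to 51.2 (median 40.9) with Diet 5 and 23.1 to 68.8 (median 38.0) with Diet 6, against 35.5 to 80.8 (median 58.9) with Diet 1 CPM and had its highest median with Diet 1. The log2 fold change in Diet 5 was -0.60 ± 0.19, and the call was lost without any of 8 single fish (Diet 1 replicates 1, 4, 6, 7 and 9, Diet 5 replicates 1, 4 and 8; -0.68 to -0.50). PLPP2 was the contig that followed the exocrine pancreas markers most: across 53 fish within diets its r with the mean log2 level of those 7 markers was 0.541 (rho 0.621, adjusted permutation p = 0.00145 over the 29 contigs), 0.553 without the 2 farthest fish, and 0.834, 0.713 and -0.0289 within the L tags. The marker score lay between 7.13 and 10.8 in Diet 5 livers and between 8.05 and 12.1 in Diet 1 livers. With the score as a covariate the log2 fold change of PLPP2 was -0.44 and no longer called. ACSF2 was the only other contig past the threshold (r = -0.406, rho = -0.345, adjusted permutation p = 0.0461 for r and 0.165 for rho), at -0.316 without the 2 farthest fish and between -0.481 and -0.159 within the L tags. PNPLA7 had an r of -0.435 (rho -0.337) but did not pass (adjusted permutation p = 0.139 for r and 0.254 for rho). Its r was -0.387 without the 2 farthest fish and -0.761, -0.373 and -0.575 within L tags 4, 5 and 8.

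Between the test diets a member can be tested where the list of a diet outside the pair named it, because those lists did not use the fish compared. This gave 203 combinations of a contig and a pair of diets over the 10 pairs, of which 11 passed. The 11 concerned Diets 5 and 6. The calls between test diets given above for ACSF2, ACBP, ACAD11, PNPLA7, GPX4b, PLCL2 and PLPP3 are not among them. The Diet 5 list alone named those contigs, and Diet 5 fish are in each of those comparisons. In Diet 5 versus Diet 3, 4 of 13 such contigs were called (4.51% of all contigs). In Diet 6 versus Diet 5 it was 4 of 13 (4.07% of all), in Diet 6 versus Diet 2 it was 2 of 24 (2.52%) and in Diet 6 versus Diet 3 it was 1 of 29 (1.16%). None of the 6 contigs testable in Diet 5 versus Diet 2 (1.38% of all called), the 12 in Diet 5 versus Diet 4 (2.49%), the 28 in Diet 6 versus Diet 4 (0.45%), the 26 in Diet 3 versus Diet 2 (0.0419%), the 24 in Diet 4 versus Diet 2 (0%) or the 28 in Diet 4 versus Diet 3 (0%) was called by edgeR. In these 6 pairs DESeq2 called 0, 2, 0, 0, 0 and 1 of them, and 227, 335, 59, 20, 9 and 4 of all 9548 contigs. At an unadjusted p under 0.05 the 6 pairs had 0, 7, 5, 6, 3 and 2 contigs. The share of all contigs at that threshold was not counted, so nothing is read from those counts. The comparisons share fish of Diets 5 and 6 and are not independent of each other.

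In Diet 5 livers, against Diet 3 livers, ABHD6, CPT1 and SC5D rose and MOGAT2 fell. ABHD6 averaged 32.9 ± 11.2 CPM with Diet 5 (SD, n = 8) and 11.4 ± 6.1 with Diet 3 (n = 9), a log2 fold change of 1.53 ± 0.30 (edgeR adjusted p = 0.000777), higher than the Diet 3 median in 8 of 8 fish. CPT1 averaged 17.4 ± 6.2 CPM with Diet 5 and 9.15 ± 4.23 with Diet 3, at 0.92 ± 0.25 (edgeR adjusted p = 0.0156), above that median in 7 of 8 fish. Both also passed on T tag sums and with any 1 fish of either diet left out, while CPT1 did not in a fit of those 2 diets alone (adjusted p = 0.0543).

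MOGAT2 averaged 0.994 ± 0.692 CPM with Diet 5 and 2.87 ± 2.31 with Diet 3, at -1.52 ± 0.41 (edgeR adjusted p = 0.0153), with 8 of 8 fish under the Diet 3 median. Its call rested on Diet 3 replicate 1: without that fish the log2 value was -1.13. SC5D averaged 14.1 ± 9.97 CPM with Diet 5 and 5.36 ± 5.59 with Diet 3, at 1.40 ± 0.46 (edgeR adjusted p = 0.0480), above the Diet 3 median in 8 of 8 fish. Leaving out any of 11 single fish ended that call (all Diet 3 replicates but 3 and 7, and Diet 5 replicates 3, 4, 8 and 9), with values of 1.17 to 1.77 over the fish left out in turn, and it was also lost with no filter on low counts and in a fit of those 2 diets alone (adjusted p = 0.0685 and 0.122). Some fits without a fish of another diet also gave 3 calls in place of 4. Neither MOGAT2 nor SC5D passed with T tag sums (adjusted p = 0.135 and 0.0518).

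No cell type marker was called in Diet 5 versus Diet 3. The summed lymphoid markers were at 28.1 to 137 CPM in Diet 5 livers and 16.3 to 35.4 CPM in Diet 3 livers (median log2 fold change 0.93), and the summed hepatocyte markers at 2581 to 4393 CPM in Diet 5 livers and 1617 to 4014 CPM in Diet 3 livers (0.59). Their part in the 4 values was not tested, while with the exocrine score as a covariate ABHD6, CPT1, SC5D and MOGAT2 were all called.

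**Figure D4:**
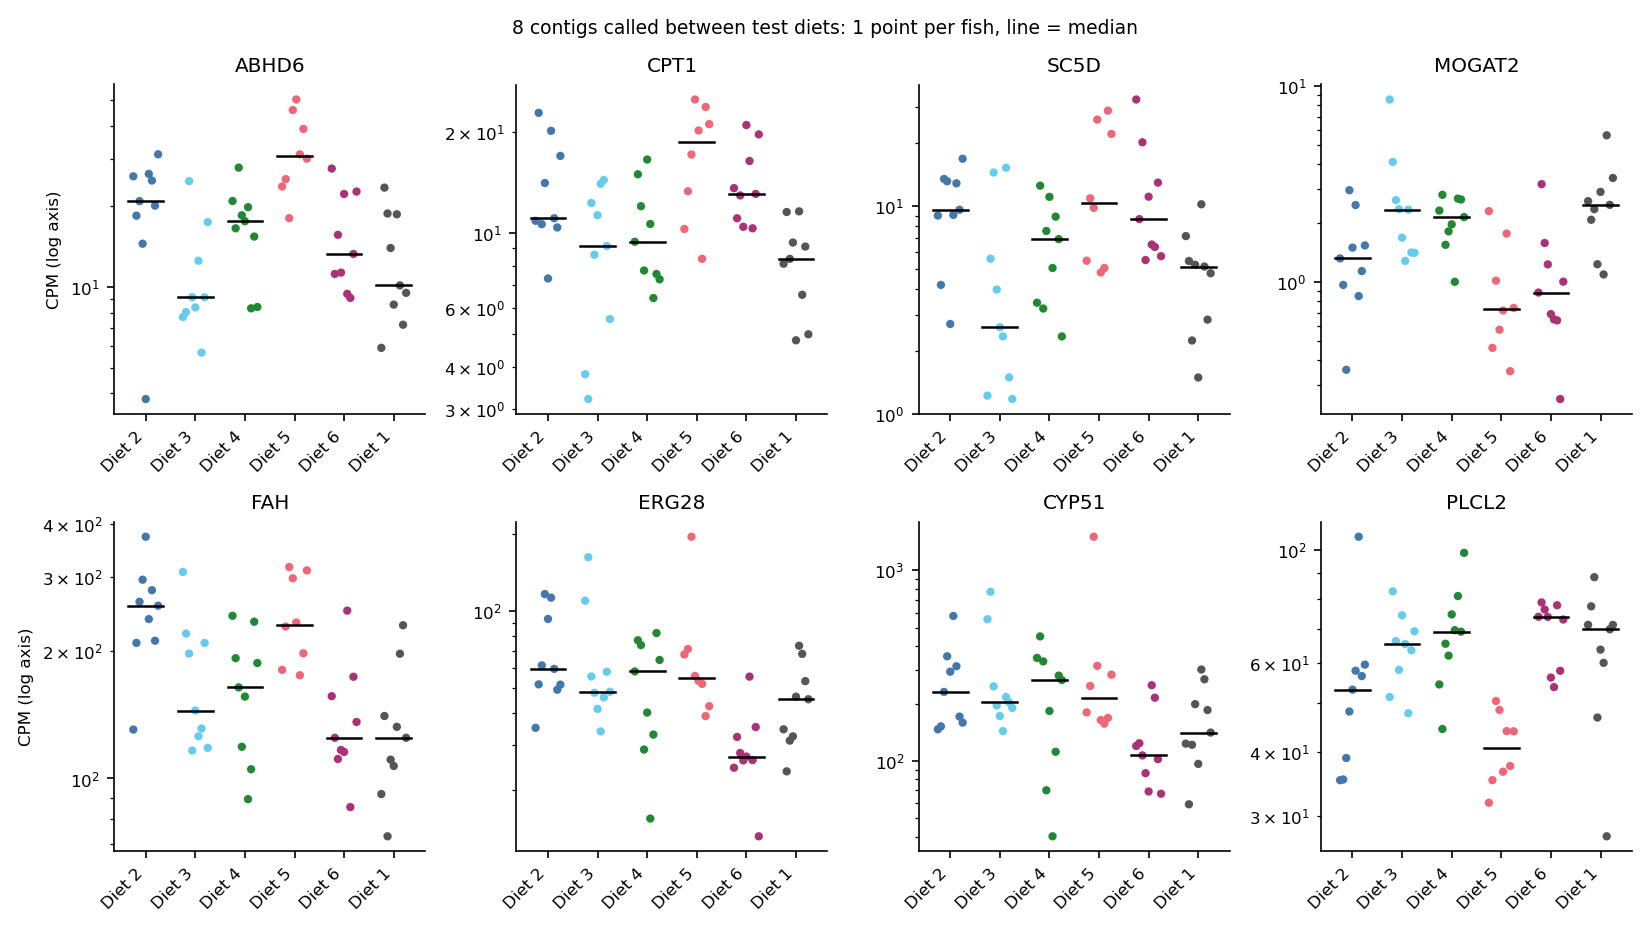
CPM on a log axis, 1 point per liver with the median as a line, of 8 contigs that were called between test diets, for Diets 2 to 6 and Diet 1. ABHD6 and CPT1 have their highest median with Diet 5, ERG28 and CYP51 their lowest with Diet 6. The PLCL2 points of Diet 5 (31.8 to 50.4) lie below all those of Diet 6 (53.7 to 78.8). PLCL2 was named by the Diet 5 list alone, so that its difference is a description.

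In Diet 6 livers the sterol contigs ERG28 and CYP51, with FACH and ABHD6, were lower than in Diet 5 livers. ERG28 and FACH were also lower than in Diet 2 livers. For FACH the medians of Diets 6 and 1 given above are close, and for ABHD6 that of Diet 6 lies above that of Diet 1. ERG28 averaged 29.7 ± 11.4 CPM with Diet 6 (SD, n = 9), against 72.0 ± 50.8 with Diet 5 (n = 8), 70.0 ± 29.6 with Diet 2 (n = 9) and 66.9 ± 41.8 with Diet 3 (n = 9). The log2 fold changes of Diet 6 were -1.27 ± 0.32, -1.23 ± 0.31 and -1.17 ± 0.31 (edgeR adjusted p = 0.00783, 0.0116 and 0.0321), with 8, 9 and 8 of 9 fish under the other diet's median. The value against Diet 5 was -0.87 and not called without Diet 5 replicate 3, and that against Diet 3 was lost on leaving out any of 6 single fish (Diet 3 replicates 1 and 2, Diet 6 replicates 1, 5, 7 and 9), at -1.33 to -0.88.

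CYP51 averaged 127 ± 64 CPM with Diet 6 and 377 ± 458 with Diet 5, at -1.57 ± 0.43 (edgeR adjusted p = 0.0154), under the Diet 5 median in 7 of 9 fish. Without Diet 5 replicate 3 it was -0.77 and not called, and with the exocrine score as a covariate -1.35 (adjusted p = 0.0557); in a fit of those 2 diets alone it did not pass either (adjusted p = 0.0514). FACH averaged 141 ± 48 CPM with Diet 6, against 243 ± 58 with Diet 5 and 251 ± 67 with Diet 2, at -0.78 ± 0.22 and -0.83 ± 0.21 (edgeR adjusted p = 0.0184 and 0.0130), under those medians in 8 and 9 of 9 fish and called with any 1 fish left out as well. ABHD6 averaged 15.8 ± 6.7 CPM with Diet 6 and 32.9 ± 11.2 with Diet 5, at -1.07 ± 0.29 (edgeR adjusted p = 0.0176), under the Diet 5 median in 9 of 9 fish.

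Of these 7 Diet 6 calls, the T tag sums kept 1, ABHD6 (adjusted p = 0.0360). On those sums the edgeR adjusted p of ERG28 was 0.194 against Diet 5 and 0.225 against Diet 2. For FACH it was 0.104 and 0.109. Other transcripts moved in the same livers. Of 2 hepatocyte markers, both from the study's lists, ceruloplasmin was called lower in Diet 6 against each of the 5 other diets. The summed marker levels were 1018 to 1896 CPM in Diet 6 livers and 2581 to 4393 CPM in Diet 5 livers. The exocrine score ran between 1.48 and 10.5 in Diet 6 livers, with 3 fish under 4, and between 7.13 and 10.8 in Diet 5 livers. The part of either in these values was not tested beyond the covariate fit, in which ERG28, FACH and ABHD6 were still called.

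Fish of the same diet also differed by T tag. The T tags within diets were tested over all contigs, without using diet differences, and 2 of the 29 passed, where 0.251% of all contigs did. They were ERG28 (edgeR F = 5.24, adjusted p = 0.0263) and PLA2G3 (F = 5.03, adjusted p = 0.0298). In Diet 2, the 3 ERG28 values of tag 2 were 93.0 to 116 CPM, while those of tags 6 and 13 were 49.2 to 59.4 and 34.95 to 61.3 CPM. In Diet 4, PLA2G3 had 388 to 468 CPM with tag 14, 213 to 294 with tag 1 and 99.9 to 225 with tag 18. FASN and ACLY did not pass (adjusted p = 0.0949 and 0.09999). Among the 3 L tags 1 of the 29 passed, ACBD5 (F = 7.30, adjusted p = 0.0445), where 4.43% of all contigs did, with a mean deviation of log2 CPM of -0.32 for tag 8, 0.13 for tag 4 and 0.17 for tag 5.

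**Figure D5:**
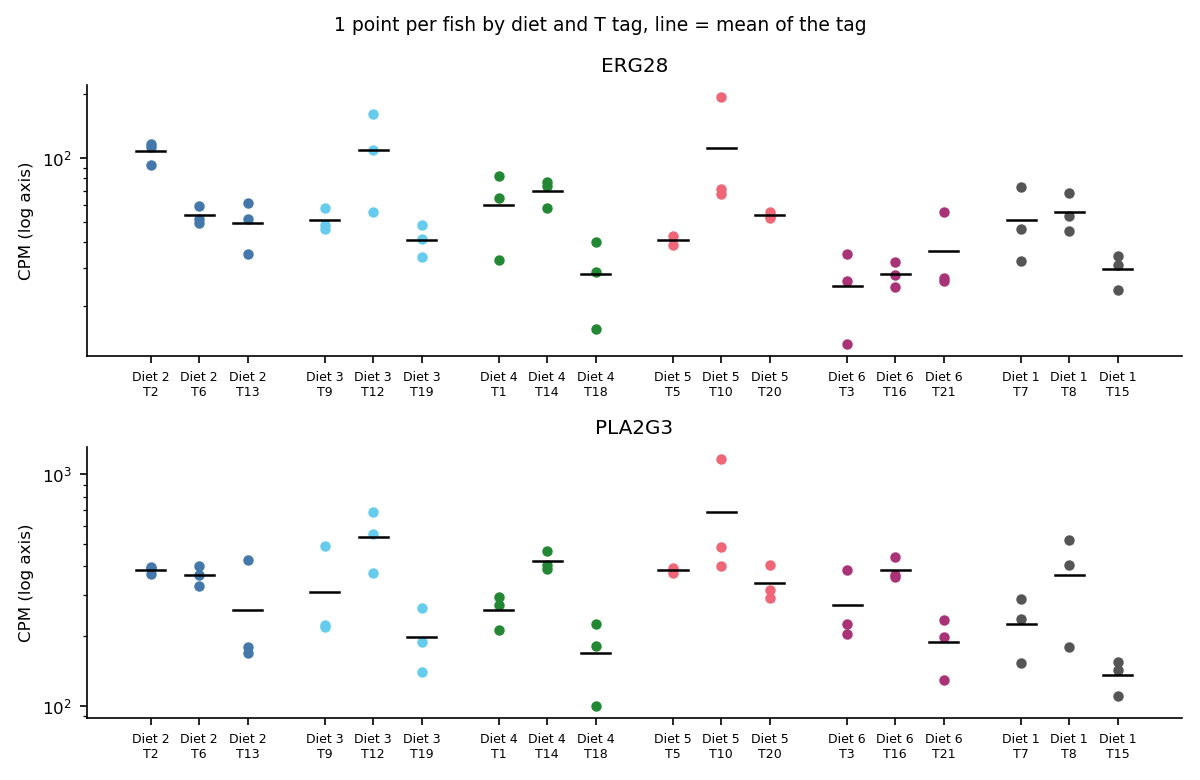
CPM on a log axis of ERG28 and PLA2G3 by diet and T tag, 1 point per liver, with the mean of each tag as a line. In ERG28 of Diet 2, the livers of tag 2 lie at 93.0 to 116 CPM, above those of both other tags.

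A further 17 lipid-linked contigs, which stood on the same lists but whose names the rule does not match, were counted beside the members. In Diet 5 versus Diet 1, 5 of the 17 were called higher and 3 lower (3.33% and 3.34% of all contigs), from which nothing is read, since the lists that named them used these fish, with a median log2 fold change of 0.95; in Diet 6 versus Diet 1, 2 were higher and 2 lower (1.01% and 1.15% of all contigs), and in Diets 2, 3 and 4 none was called. Some belong to the pathways above: within diets FASN went with acetyl-CoA carboxylase 1 (ACACA, which makes malonyl-CoA for it) at an r of 0.597 (rho 0.607, adjusted permutation p = 0.000104) and with glycerol-3-phosphate acyltransferase 1 (GPAM, the first step of glycerolipid synthesis) at 0.714 (rho 0.687), although without the 2 farthest fish r was 0.555 and 0.647. CYP51 went with the sterol isomerase EBP at an r of 0.854 (rho 0.839, adjusted permutation p = 2.27e-05), 0.799 without the 2 farthest fish and between 0.678 and 0.961 within L tags.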

How the data were processed

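The files hold estimated counts (the effective counts of eXpress) per contig, made by the authors and deposited as whole numbers in 1 file per fish, and were used as they stand. The authors trimmed reads with Trim Galore 0.6.5 and cutadapt 2.7, aligned them with Bowtie2 2.3.4.1 to a transcriptome of 20914 contigs and counted them with eXpress 1.5.1, which divides ambiguous reads between contigs; their lists came from DESeq2 1.24.0. Those lists pair contigs with names. No sequence or length of the contigs was used here, so levels are not compared between contigs. Members, gene lists, pairs and tests were chosen with earlier results of these data known.

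CPM used library totals times TMM factors. A single quasi-likelihood fit (edgeR 4.0.16, R 4.3.3) of 53 libraries, without Diet 5 replicate 7, covered the 9548 contigs that averaged 5 counts or more, with 15 diet comparisons, Benjamini-Hochberg adjustment over all contigs and a call at an adjusted p under 0.05 and over 1.5-fold; the T and L tag tests had no fold threshold. Standard errors are the size of the log2 fold change over the square root of F. Correlations used log2 CPM with a prior count of 0.5 and two-sided permutations (Python 3.11.15). The 2 farthest fish were chosen on 1 contig of a pair only, or on the exocrine score. All members are named, with values by diet for those called at least once and, chosen after their values were seen, for ACLY, PNPLA2 and G0S2. The fits were tested on simulated data. Alternatives were DESeq2 1.42.0, its size factors in edgeR, no filter, separate fits of each pair of diets, Diet 5 replicate 7 kept, a replicate block, L tag or exocrine covariates, T tag sums and each fish left out. No 2 libraries held identical counts.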

Additional observations from a re-analysis of the deposited data

Results flagged for a closer look

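In 20 of the 174 groups of 1 contig and 1 diet (11.5%), 1 fish stood apart from the other fish of its diet by Dixon's test on log2 CPM. Chance flags about 1 group of 20 where values are normal. The share of groups flagged over all contigs was not counted, so nothing about the members is read from this count. The groups are not independent, because the same fish recur.

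Diet 5 replicate 3 was the highest of its diet for ACLY at 1693 CPM, FASN at 4685 CPM, CYP51 at 1502 CPM, ERG28 at 195 CPM and PLA2G3 at 1161 CPM. The other 7 Diet 5 fish reached at most 232, 453, 316, 71.0 and 487 CPM of these contigs. Diet 6 replicate 6 was the highest for ACLY at 616 CPM, FASN at 1112 CPM, SCD at 5749 CPM, GPX4a at 472 CPM and GPX4b at 423 CPM, where the next Diet 6 fish had 59.2, 176, 836, 292 and 204 CPM, and it was the lowest for ACAD11 at 51.1 CPM. Diet 1 replicate 7 was the highest for ACLY at 339 CPM, ACSL1 at 59 CPM and GPX4a at 435 CPM, where the next Diet 1 fish had 52.1, 11.5 and 227 CPM, and the lowest for PNPLA7 at 50.3 CPM.

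The other fish that stood apart were Diet 3 replicate 1 (ACSL1, highest at 73.6 CPM), Diet 2 replicate 7 (G0S2, highest at 56 CPM, and PLCL2, highest at 106 CPM), Diet 4 replicate 6 (ACBP, lowest at 588 CPM) and Diet 2 replicate 5 (ABHD6, lowest at 3.81 CPM). The exocrine score of Diet 4 replicate 6 was 2.79, while that of the other fish named here lay between 9.55 and 11.8; its part in these values was not tested.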

How the results depend on the processing

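Calls over all contigs, given in brackets, shifted between runs as well, so nothing about the members is read from these counts of calls. Of the counts of members called against Diet 1, that of Diet 5 (20) was 8 with T tag sums (393 of all 11686). For Diets 2, 4 and 6, with none called, DESeq2 gave 1, 2 and 3 (23, 33 and 266 of all 9548). Diet 6, with 206 of all 9548 in the main fit, gave 1 with DESeq2 size factors (212 of 9548), separate fits (112 of 9783) or Diet 5 replicate 7 kept (215 of 9519). It gave 5 with the exocrine covariate (348 of 9548). Leaving out each of 53 fish gave 0 to 2 for Diet 2, 0 to 2 for Diet 4 and 0 to 3 for Diet 6. For Diet 5 it gave 13 (without Diet 5 replicate 3, 480 of all contigs) to 23.

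Of the counts between test diets, Diet 6 versus Diet 2 (2) was 0 with T tag sums (120 of all 11686 contigs). Diet 4 versus Diet 3 (0) was 1 with DESeq2 (4 of 9548). Diet 5 versus Diet 3 (4) was 2 with separate fits (384 of 9493) or T tag sums (203 of 11686). It was 2 to 4 with a fish left out, the 2 without Diet 3 replicate 1 (328 of all). Diet 6 versus Diet 3 (1) was 3 with DESeq2 (163 of 9548) or the exocrine covariate (194 of 9548). It was 0 with no filter (83 of 17469), separate fits (49 of 9930) or T tag sums (20 of 11686), and 0 to 3 with a fish left out. Diet 5 versus Diet 4 (0) was 2 with DESeq2 (335 of 9548) and 0 to 1 with a fish left out. It was 1 with DESeq2 size factors (249 of 9548), separate fits (170 of 9544), Diet 5 replicate 7 kept (246 of 9519) or the L tag covariate (244 of 9548). Diet 6 versus Diet 5 (4) was 1 with T tag sums (207 of 11686) and 2 (without Diet 5 replicate 3) to 5 with a fish left out. T tag sums leave 18 values and also join fish of the same tag. The cause of these shifts was not tested.

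The labels do not say that replicate numbers pair the fish. Of 130 same-numbered pairs 57 had an r over 0.1 (median 0.0692, against -0.00604 for differently numbered pairs). Same-numbered fish share an L tag, and 4.43% of all contigs passed the L tag test. The part of the tag in these r values was not tested. With the replicate block, 21 members were called in Diet 5 and 1 in Diet 6 versus Diet 1, beside 674 and 226 of all 9548 contigs. FASN in Diet 5 versus Diet 1 and PLD4 in Diet 5 versus Diet 3 were not called with it.

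Of the T tag calls (2), no filter gave 4 (34 of all 17469 contigs), and of the L tag calls (1), DESeq2 size factors gave 0 (418 of 9548). Of the 25 fixed pairs 16 passed in all fish and 10 within L tag 4 and 10 within L tag 8, which hold fewer fish. No log2 fold change of a called contig turned its sign under any alternative run. With T tag sums 35 of the 50 calls were lost.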

Other observations

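Among the 17 lipid-linked contigs outside the naming rule, several on the way into and out of hepatic lipid differed between diets; they came from the same lists, so the values are a description, and glycerol kinase and fibroblast growth factor 19 were chosen after their values were seen. Glycerol kinase, which phosphorylates glycerol, had 55.4 to 191 (median 102) CPM in Diet 5 livers. It had 17.0 to 73.6 (median 24.9) in Diet 6 livers and 22.4 to 103 (median 25.7) in Diet 1 livers. The contig was called higher in Diet 5 against Diets 1, 2, 3 and 4 (log2 fold changes of 1.58, 1.18, 1.37 and 1.77). It was called lower in Diet 6 against Diet 5 (-1.90). Glucose-6-phosphate dehydrogenase, a source of NADPH for fatty acid synthesis, had 406 to 1060.2 CPM in Diet 5 livers and 440 to 768 CPM in Diet 6 livers, neither range overlapping the 148 to 392 CPM of Diet 1 livers. Fibroblast growth factor 19, a hormone that restrains bile acid synthesis in mammals, had 0 to 1.09 CPM in Diet 5 livers and 0 to 0.591 CPM in Diet 6 livers, against 0 to 18.4 CPM in Diet 1 livers and 1.57 to 42.3 CPM in Diet 3 livers.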
